A study of Mus musculus with 6 samples.

Results

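The genes described are those of 6 connexins, the proteins that form gap junctions: Gja1, Gja4, Gja5, Gjc1, Gjb2 and Gjb5. Every probe set that the platform annotation assigns to 1 of these genes alone was taken, which gave 12 probe sets of 45037 on the array, and 6 genes of 18193 with such a probe set. Gja1 had 6 probe sets, Gjc1 had 2, and the others had 1 each. Total RNA of whole uteri taken at 3.5 dpc (days post coitum) was hybridized to Affymetrix mouse arrays, and each genotype, Arid1a f/f and Arid1a d/d, has 3 arrays. Arid1a f/f mice carry a floxed Arid1a gene on both alleles and are the controls. Arid1a d/d mice carry the same floxed alleles and Cre recombinase at 1 Pgr allele (Pgr cre/+ Arid1a f/f), so that the gene is removed in cells that express PGR, the progesterone receptor, and other uterine cells keep it. The methods give C57BL/6 males as the mates for timed pregnancies, and no age is stated for the mice on the arrays. Without a group that carries Cre alone, an effect of the Pgr cre allele cannot be told apart from loss of Arid1a. Whether the samples are different mice is not stated in the labels, and the p-values therefore cover only the spread among these samples, which may be technical.

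Connexins assemble into a ring in the membrane, and rings of neighbouring cells dock to make a channel through which ions and small metabolites pass from cell to cell. Gap junctions of the uterus are known to respond to ovarian steroids and to the embryo: Gja1 protein couples stromal cells during decidualization and smooth muscle cells of the myometrium at labour, and Gjb2 protein joins epithelial cells and is induced around implantation in the mouse. Gja4 and Gja5 are connexins of vascular endothelium, Gjc1 is found in smooth muscle among other tissues, and Gjb5 in stratified epithelium and trophoblast.

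Values are linear, normalized intensities as deposited. With no detection calls in the table, dim signal and background are not separable. The median of all intensities, 3.12, is used below as a mark of a dim probe set. The array medians were 3.05 to 3.17, and arrays of 1 genotype correlated at 0.984 to 0.990, against 0.956 to 0.978 between genotypes (log2 values of 22295 probe sets above the median). The targeted gene, Arid1a, a SWI/SNF chromatin remodeling subunit, was lower in Arid1a d/d uteri (log2 fold change -0.76 on its brightest probe set, adjusted p = 0.0120, limma), though where that probe set lies relative to the deleted part is not given here. Log2 fold changes are Arid1a d/d over Arid1a f/f, so a value above 0 means a higher level in Arid1a d/d uteri. They were tested with limma on log2 intensities, the p-values were adjusted by Benjamini-Hochberg over the whole array, and the threshold was 0.05. Intensities of different probe sets depend on their probes and are not compared with each other.

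Among the 6 genes, Gjb2 and Gja1 rose and Gja4 fell in Arid1a d/d uteri, while Gja5, Gjc1 and Gjb5 did not pass the test. By probe set, 6 of 12 were higher (Gjb2 and 5 of the 6 for Gja1), 1 was lower, and 5 did not pass. Over the whole array 2.42% of probe sets were higher and 2.35% lower. The 5 probe sets of Gja1 measure 1 gene and are not independent of each other. On the same 7 probe sets the genotypes did not overlap: all Arid1a d/d arrays lay above all Arid1a f/f arrays on 6, and below them on 1. Over the whole array 11.0% of probe sets had every Arid1a d/d array above every Arid1a f/f array, and 11.5% had every one below. Counting each gene once by its brightest probe set, 2 of the 6 connexin genes were higher and 1 lower, beside 3.37% and 4.06% of all genes. The median log2 fold change was 0.038 for the 6 genes and -0.018 for all genes. The counts rest on all 6 arrays: with 1 array left out, 0 to 4 connexin probe sets were higher and 0 or 1 lower. Leaving out replicate 1 of either genotype, or Arid1a f/f replicate 3, gave a higher count of 0. Leaving out Arid1a d/d replicate 3 gave 1, Arid1a f/f replicate 2 gave 2, and Arid1a d/d replicate 2 gave 4. The lower count was 0 except without Arid1a d/d replicate 3, where it was 1.

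**Figure D1:**
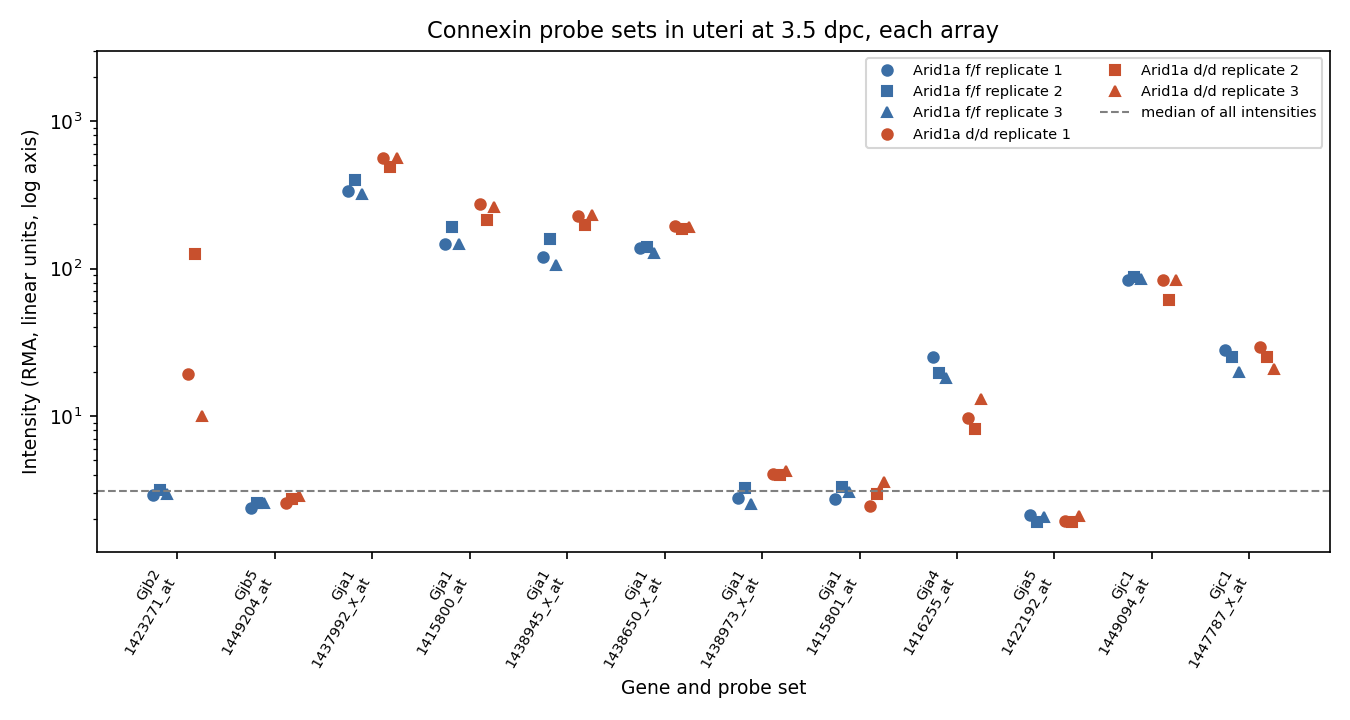
Intensity of each connexin probe set (horizontal axis) on each of the 6 arrays (vertical axis, log scale, RMA units), with Arid1a f/f in blue, Arid1a d/d in orange and a marker shape per replicate. The dashed line is the median of all intensities, 3.12. The Arid1a f/f arrays of Gjb2 lie at that line, and its Arid1a d/d arrays lie apart from each other, between 9.96 and 125.

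The 250 bases before the annotated start of the 3 connexin genes that passed the test are shown. They are RefSeq sequences of assembly GRCm38.p6, printed 5′ to 3′ on the strand of the gene, and are not the probes of the array. Capitals mark matches, on either strand, to the motifs described after them. Gjb2 is from chr14:57104703-57104952 (minus strand), Gja1 from chr10:56377050-56377299 (plus strand) and Gja4 from chr4:127314040-127314289 (minus strand).
Gjb2: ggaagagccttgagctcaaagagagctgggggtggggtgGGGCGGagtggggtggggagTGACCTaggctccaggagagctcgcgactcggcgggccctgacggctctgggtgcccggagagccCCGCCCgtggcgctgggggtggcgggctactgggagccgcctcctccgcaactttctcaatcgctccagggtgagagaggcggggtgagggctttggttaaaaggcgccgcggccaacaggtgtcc
Gja1: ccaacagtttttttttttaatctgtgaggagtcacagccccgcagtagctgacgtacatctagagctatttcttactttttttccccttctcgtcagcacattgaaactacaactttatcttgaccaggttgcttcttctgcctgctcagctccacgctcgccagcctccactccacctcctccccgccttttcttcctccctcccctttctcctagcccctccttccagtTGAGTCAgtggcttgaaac
Gja4: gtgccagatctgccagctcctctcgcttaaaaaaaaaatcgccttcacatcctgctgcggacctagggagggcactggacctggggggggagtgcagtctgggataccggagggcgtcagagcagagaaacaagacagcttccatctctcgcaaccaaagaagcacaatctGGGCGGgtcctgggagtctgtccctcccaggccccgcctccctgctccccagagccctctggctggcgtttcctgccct

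The median share of G and C over all 32851 promoters of the table was 52.4%. The Gjb2 promoter, at 69.2%, and the Gja4 promoter, at 61.2%, lay above it, and the Gja1 promoter lay below it. The motifs searched were the GC box GGGCGG, the AP-1 site TGACTCA, the nuclear receptor site AGGTCA, the full palindromic estrogen response element (which overlaps the nuclear receptor site), the full progesterone response element, the TATA box TATAAA and the ETS site GGAAGT. Gjb2 had 2 GC boxes and 1 nuclear receptor site, Gja4 had 1 GC box, and Gja1 had 1 AP-1 site that begins 19 bases before the start. Among all promoters 32.7% held a GC box, 14.0% a nuclear receptor site and 4.46% an AP-1 site. The full estrogen and progesterone response elements, held by 0.0639% and 0.387% of promoters, the TATA box (12.4%) and the ETS site (19.7%) had no match in these 3 windows. In the other windows with an entry, that of Gja5 had 1 GC box, and that of Gjb5 had 1 nuclear receptor site and 1 TATA box. A match describes the letters and says nothing about binding. Whether the motifs go with the direction of change was not tested.

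Gjb2, which encodes Cx26, a connexin of epithelial cells, showed the largest change among the 6 genes. Its intensity was 2.90, 3.15 and 2.98 on control replicates 1, 2 and 3, and 19.3, 125 and 9.96 on Arid1a d/d replicates 1, 2 and 3. Every Arid1a d/d array lay above every control array, and the Arid1a d/d arrays spread far more widely than the controls, with replicate 2 well above the other two. The mean was 3.01 ± 0.128 for the controls and 51.5 ± 64.0 for Arid1a d/d (SD, n = 3 each). The log2 fold change was 3.26 (standard error 0.75, 95% interval 1.57 to 4.96, adjusted p = 0.0443, limma), which is 9.59-fold on the log scale. The ratio of the arithmetic means, which give more weight to the brightest array, was 17.1. Without Arid1a d/d replicate 2 the log2 fold change was 2.20 and passed the test (adjusted p = 0.00752, limma). Since the control mean was dimmer than the median of all intensities, the size of the fold is uncertain: on the log2(intensity + 4) scale the difference was 2.31 and did not pass (adjusted p = 0.186, limma). The call was also lost with a variance trend and robust fitting (adjusted p = 0.176, limma), and without control replicate 1 (log2 fold change 3.24, adjusted p = 0.131), 2 (3.30, adjusted p = 0.139) or 3 (3.26, adjusted p = 0.130) or Arid1a d/d replicate 1 (3.55, adjusted p = 0.0722).

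Epithelial markers measured in the same RNA also differed among the Arid1a d/d arrays. In RNA of a whole uterus, a change in the number of cells of a type and a change in RNA per cell cannot be told apart. Of 11 measured epithelial markers 2 were higher and 0 lower (7 higher and 0 lower at an unadjusted p under 0.05), with a median log2 fold change of 0.77, and 0 had a mean below the median of all intensities. Those that passed were Cdh1, which encodes E-cadherin (log2 fold change 0.92, adjusted p = 0.0119), and the ligand gene Wnt7a (1.07, adjusted p = 0.0339). The dimmer probe sets of Wnt7a did not pass (-0.065 and -0.20, adjusted p = 0.894 and 0.410, limma). Epcam did not pass on its brightest probe set (0.40, adjusted p = 0.473, limma) but was higher on a dimmer one (0.65, adjusted p = 0.0227, limma). The brightest of the list were the keratin gene Krt8 and the claudin gene Cldn3, at 0.77 and -0.39, and neither passed. The summed intensity of the list was 1155 to 1243 on the control arrays, and 1214, 2373 and 1648 on Arid1a d/d replicates 1, 2 and 3. The array with the highest Gjb2 intensity was therefore also the array with the highest epithelial sum. Arid1a d/d replicate 1, with a higher Gjb2 intensity than replicate 3, had an epithelial sum within the control range. The mean log2 value of the list placed that array differently. Relative to the control mean it was 0.17, 1.16 and 0.53 on Arid1a d/d replicates 1, 2 and 3. The control arrays had 0.031, 0.043 and -0.074, so every Arid1a d/d array lay above every control array. The median of the list was 0.39 without Arid1a d/d replicate 2, and its higher markers numbered 0 without control replicate 2 and 1 without control replicate 1 or 3. The log2 value of Gjb2 minus the mean log2 value of the epithelial markers on the same array was -4.41 ± 0.075 for the controls and -1.77 ± 1.51 for Arid1a d/d (SD, n = 3 each). The difference of 2.64 had all Arid1a d/d arrays above all control arrays (exact permutation test, two-sided, p = 0.1, which is the smallest p that 3 arrays against 3 allow, and 0.15 after adjustment over the 3 such tests made). On the log2(intensity + 4) scale the difference was 1.76, and without any 1 array it ran from 1.86 (without Arid1a d/d replicate 2) to 3.36, so its size is as uncertain as that of the fold. On the log2 scale with nothing added, the epithelial list itself differed by 0.62, and the Gjb2 difference was larger than that of the list on each Arid1a d/d array. The part of epithelial content in the Gjb2 difference was not tested further.

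On chromosome 14 Gjb2 lies between the connexin genes Gja3 and Gjb6, and their values were set beside its own. Gja3, a connexin known from the lens, had intensities of 1.66, 1.5 and 1.99 on the control arrays and 2.57, 8.44 and 2.57 on the Arid1a d/d arrays on its brightest probe set. Every Arid1a d/d array again lay above every control array, and Arid1a d/d replicate 2 was again the highest. Only that array lay above the median of all intensities, and the other values are too dim to be told from background. The log2 fold change of 1.16 did not pass the test (adjusted p = 0.160, limma), and its other probe set had 0.079 (adjusted p = 0.740, limma). Gjb6, a connexin of the inner ear and skin, had 0.010 (95% interval -0.26 to 0.28) and stayed below the median of all intensities on every array. Gjb5, which encodes Cx31.1, lies on chromosome 4, as Gja4 does. Its intensity was 2.39, 2.56 and 2.56 on the control arrays and 2.56, 2.72 and 2.88 on the Arid1a d/d arrays, all below the median of all intensities. The log2 fold change was 0.12 (95% interval -0.10 to 0.34, adjusted p = 0.599, limma), so a change at a level too dim to be told from background was not resolved.

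Gja1, which encodes Cx43, the connexin of stroma and myometrium, was higher in Arid1a d/d uteri on 5 of its 6 probe sets. On the brightest probe set the intensity was 338, 400.1 and 321 on control replicates 1, 2 and 3, and 558, 492 and 559 on Arid1a d/d replicates 1, 2 and 3. The arrays of each genotype lay close together and the genotypes did not overlap. The means were 353 ± 41.6 (SD, n = 3) and 536 ± 38.3 (SD, n = 3), and the log2 fold change was 0.61 (standard error 0.12, 95% interval 0.34 to 0.87, adjusted p = 0.0251, limma), or 1.52-fold. The other bright probe sets, with control means of 128 to 161, had log2 fold changes of 0.63 (adjusted p = 0.0428), 0.79 (adjusted p = 0.0250) and 0.50 (adjusted p = 0.0227). The last of these had the least spread, at 139, 139 and 128 in control uteri and 193, 187 and 192 in Arid1a d/d uteri. The remaining 2 probe sets were dim. Of these, 1 had 2.79, 3.27 and 2.52 in control uteri against 4.03, 3.99 and 4.22 in Arid1a d/d uteri (log2 fold change 0.52, adjusted p = 0.0409), and the other did not pass (-0.028, adjusted p = 0.955). Of the 5 probe sets that passed, 4 have names that mark probes which may match other transcripts. With such probe sets left out, Gja1 was 0.63 and still passed (adjusted p = 0.0470, limma). The only other Gja1 probe set without such a name is the dim one that did not pass. The brightest probe set kept its call without control replicate 2 (0.70) or Arid1a d/d replicate 2 (0.67). It lost the call without control replicate 1 (0.58, adjusted p = 0.0839) or 3 (0.54, adjusted p = 0.0923), or Arid1a d/d replicate 1 (0.58, adjusted p = 0.0630) or 3 (0.58, adjusted p = 0.0751).

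**Figure D2:**
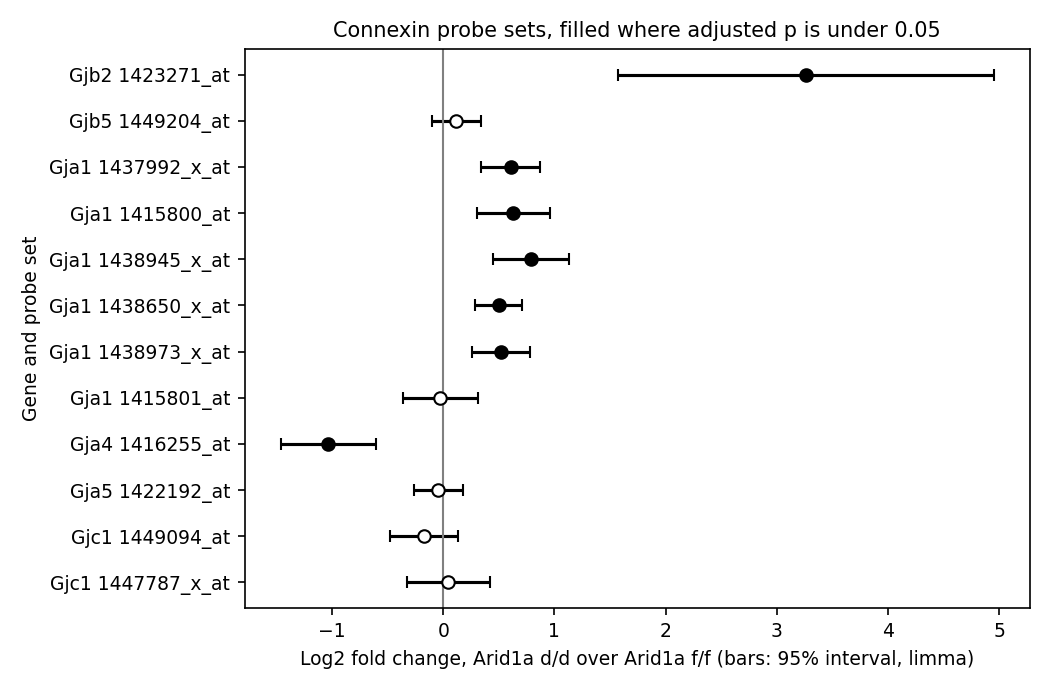
Log2 fold change of each connexin probe set, Arid1a d/d over Arid1a f/f (horizontal axis), from 3 arrays per genotype, with 95% intervals from limma and filled points where the adjusted p is under 0.05. The 5 filled Gja1 points lie between 0.50 and 0.79, Gjb2 lies at 3.26 with an interval of 1.57 to 4.96, and Gja4 lies at -1.03.

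No marker of stroma or smooth muscle, where Gja1 is best known, passed the test as higher in the same RNA. Of 10 measured stromal markers, 0 were higher and 1 lower, with a median log2 fold change of -0.38 (0 higher and 6 lower at an unadjusted p under 0.05, limma). The lower one was Dcn, the decorin gene, and the collagen genes Col3a1 and Col1a2, the brightest of the list, had -0.14 and -0.26 and did not pass. Among the smooth muscle markers 1 of 12, the desmin gene Des, was lower and 0 higher, with a median of -0.15 (0 higher and 4 lower at an unadjusted p under 0.05, limma). Synpo2 was lower on a dimmer probe set (-0.53, adjusted p = 0.0272, limma), though not on its brightest. The smooth muscle actin gene Acta2 and the myosin light chain kinase gene Mylk, the brightest, had 0.060 and -0.22 and did not pass. The summed intensity of the stromal markers was 10413 to 11661 among the controls and 8112 to 9603 among Arid1a d/d arrays, and that of the smooth muscle markers 9054 to 10253 and 8110 to 9824, so the stromal sums did not overlap and the smooth muscle sums did. None of the markers of either list had a mean below the median of all intensities. The lower count of the stromal list was 0 without replicate 2 of either genotype. That of the smooth muscle list rose to 2 without Arid1a d/d replicate 1, whereas it was 0 when any other array was left out, and leaving out Arid1a d/d replicate 1 or 2 put its median at -0.23 or -0.032. Relative to the mean of the stromal markers on the same array, the log2 value of Gja1 was 1.02 higher in Arid1a d/d than in control uteri, and relative to the smooth muscle markers 0.76 higher, both without overlap of the genotypes. Relative to the epithelial markers, the log2 value of Gja1 was 2.46 ± 0.13 for the controls and 2.44 ± 0.60 for Arid1a d/d (SD, n = 3 each). The difference was -0.013, and the genotypes overlapped. This does not show that the ratio was equal, since the Arid1a d/d arrays ranged from 1.78 on replicate 2 to 2.95 on replicate 1. These 3 differences are descriptions with no test, chosen after the levels had been seen.

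Gja4, which encodes Cx37 of vascular endothelium, was lower in Arid1a d/d uteri. The intensity was 25.2, 19.5 and 18.1 on control replicates 1, 2 and 3, and 9.74, 8.13 and 13.1 on Arid1a d/d replicates 1, 2 and 3. All Arid1a d/d arrays lay below all control arrays, and all 6 were above the median of all intensities. The means were 20.9 ± 3.76 (SD, n = 3) and 10.3 ± 2.54 (SD, n = 3), and the log2 fold change was -1.03 (standard error 0.19, 95% interval -1.46 to -0.60, adjusted p = 0.0210, limma), a 2.05-fold lower level. The call held without Arid1a d/d replicate 3 (-1.22). It was lost without control replicate 1 (-0.89, adjusted p = 0.0707), 2 (-1.08, adjusted p = 0.0737) or 3 (-1.13, adjusted p = 0.0525), or Arid1a d/d replicate 1 (-1.0, adjusted p = 0.0566) or 2 (-0.87, adjusted p = 0.0546).

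Endothelial markers fell in the same RNA by about the same amount. Of the endothelial list, 11 of 12 markers were lower and 0 higher, with a median log2 fold change of -1.0, and 0 had a mean below the median of all intensities. The brightest were Esam and Egfl7, endothelial adhesion and matrix genes, at -1.32 (adjusted p = 0.00100) and -0.99 (adjusted p = 0.00360). The summed intensity of the list was 579 to 606 among the controls and 253 to 306 among Arid1a d/d arrays, with no overlap. The lower markers numbered 7 without control replicate 2, 6 without control replicate 3 or Arid1a d/d replicate 3, and 8 or 9 without any other array. The log2 value of Gja4 minus the mean of the endothelial markers was -0.81 ± 0.28 for the controls and -0.82 ± 0.25 for Arid1a d/d (SD, n = 3 each). The genotypes overlapped, with a difference of -0.014 (exact permutation test, two-sided, p = 0.9, and 0.9 after adjustment over the 3 tests), which changed sign under other settings. Relative to the arterial markers, the log2 value of Gja4 was 0.62 ± 0.22 for the controls and -0.17 ± 0.39 for Arid1a d/d (SD, n = 3 each), a difference of -0.79 with every Arid1a d/d array below every control array, given with no test and chosen after the levels had been seen. The overlap beside the endothelial list does not show that the ratio was equal, since single arrays within a genotype ranged from -0.49 to -1.0. The part of endothelial content in the fall of Gja4 was not tested further. Markers of arterial endothelium were less uniform: of 8 measured, 0 were higher and 2, Notch4 (-0.84) and Acvrl1 (-0.87), were lower, with a median of -0.19. The brightest of the 8, Sox17 and Efnb2, had -0.42 and 0.76, and neither passed. Whether these genes mark arterial endothelium alone in RNA of a whole uterus was not tested. Leaving out control replicate 3, Arid1a d/d replicate 2 or Arid1a d/d replicate 3 left 1 lower arterial marker, and leaving out control replicate 2 put the median at -0.12. Of 8 leukocyte markers, 0 were higher and 1, Ptprc, was lower, with a median of -0.32, while the brightest, Lyz2 and Csf1r, had -0.062 and -0.35 and did not pass, and the lower count was 0 without any 1 array other than Arid1a d/d replicate 1.

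**Figure D3:**
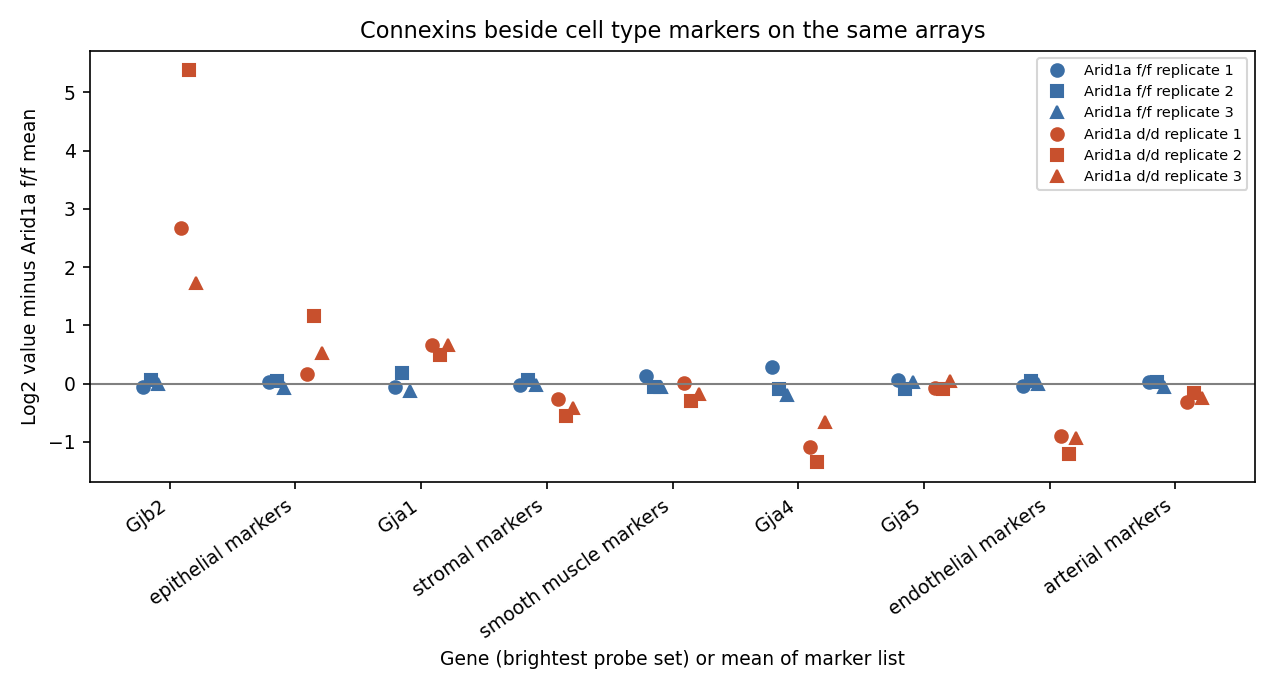
Log2 value of 4 connexin genes on their brightest probe sets, and mean log2 value of 5 marker lists, on each array, minus its mean over the Arid1a f/f arrays (vertical axis). Gja4 and the endothelial markers lie below 0 together on all 3 Arid1a d/d arrays, Gja5, dim on all arrays, stays near 0, and Gjb2 lies further above 0 than the epithelial markers do on each Arid1a d/d array.

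Gja5, which encodes Cx40, a connexin of arterial endothelium and of the atrium, was dim on every array. The intensity was 2.13, 1.90 and 2.07 on the control arrays and 1.93, 1.90 and 2.09 on the Arid1a d/d arrays, all below the median of all intensities. The log2 fold change was -0.043 (standard error 0.098, 95% interval -0.27 to 0.18, adjusted p = 0.882, limma), so neither a rise nor a fall was detectable, and at this level a change of the transcript may not show on the probe set. A comparison of Gja5 with the endothelial markers was the third of the tests made and is not reported, because a probe set this dim has little room to fall with them.

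Gjc1, which encodes Cx45, did not pass on either probe set. On the brighter probe set the intensity was 84.1, 87.4 and 85.5 on the control arrays and 84.0, 61.6 and 84.1 on the Arid1a d/d arrays. Arid1a d/d replicate 2 was the lowest, and the other two lay beside the lowest control. The log2 fold change was -0.18 (95% interval -0.48 to 0.13, adjusted p = 0.570, limma), and -0.027 without Arid1a d/d replicate 2. The second probe set had 28.0, 25.0 and 19.9 in control uteri and 29.4, 24.9 and 20.9 in Arid1a d/d uteri, with a log2 fold change of 0.045 (95% interval -0.33 to 0.42, adjusted p = 0.931, limma). The 2 probe sets differed in sign, with intervals that both include 0.

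The rest of the connexin family was dim and did not pass the test. Of the other connexin genes, 8 were analysed here (Gja3, Gja10, Gjb1, Gjb6, Gjc3, Gjd2, Gjd4 and Gje1), and 0 were higher and 0 lower in limma. With no adjustment, a p under 0.05 was reached by 1 higher gene, Gja3, and 0 lower in limma, and by 0 higher and 1 lower in the methods' t-test. Their log2 fold changes ran from -0.27 to 1.16 with a median of -0.014, and all 8 had a mean log2 value below the log2 of the median of all intensities. Of the 3 pannexin genes, which encode channel proteins of similar topology that seldom pair between cells, 0 were higher and 0 lower in limma (0 higher and 1 lower by an unadjusted p under 0.05, in limma and in the methods' t-test). Panx1, the only one above the median of all intensities, had 20.8, 18.1 and 15.5 in control uteri and 16.0, 19.9 and 22.2 in Arid1a d/d uteri, and its log2 fold change was 0.090 (95% interval -0.26 to 0.44). Of 11 measured genes whose products bind connexins, modify them or hold the cells together for junction assembly, 1 was higher, 1 lower and 9 did not pass, with a median of -0.15. Cdh1, E-cadherin, is the higher one given above with the epithelial markers. The lower one was Cnst, which encodes consortin, a protein that carries connexins from the trans-Golgi network to the plasma membrane. Its intensity was 30.1, 33.9 and 29.2 in control uteri and 22.9, 23.4 and 20.5 in Arid1a d/d uteri, with no overlap, and its log2 fold change was -0.48 (adjusted p = 0.0404, limma). The lower count was 0 when any 1 array was left out, the higher count was 0 without control replicate 2, and the median was -0.24 without Arid1a d/d replicate 1.

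The genes whose log2 values followed each connexin most closely over the 6 arrays were found by Pearson's r among 12005 genes whose brightest probe set lay above the median of all intensities. For Gjb2 they were Grpel1 (r = 0.998), Hmgcll1 (r = 0.997) and Macc1 (r = 0.997), and Macc1 itself was higher in Arid1a d/d uteri (log2 fold change 1.46, adjusted p = 0.0496). For Gja1 they were Tsen15 (0.993), Ankrd49 (0.990) and Tmem213 (0.990), which were higher by 0.46, 0.63 and 0.56 and passed the test (adjusted p = 0.0432, 0.0333 and 0.0280, limma). For Gja4 they were Thrsp (0.995), Hoxd11 (0.993) and Cul7 (0.992), of which Thrsp passed at -1.29 (adjusted p = 0.00954). For Gjc1, Gpc6, Islr and Ero1b had 0.995, 0.995 and 0.993. For the 2 dim genes, Dvl1, Cct4 and Drosha followed Gjb5 at 0.996, 0.993 and 0.993, and Ippk, Pdcd7 and Rad51d followed Gja5 at 0.991, 0.985 and 0.979. Many genes had an r above 0.95 over these 6 arrays: 149 for Gjb2, 138 for Gja4, 58 for Gja1, 61 for Gjc1, 46 for Gjb5 and 17 for Gja5. They are a description of these arrays with no test.

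**Figure D4:**
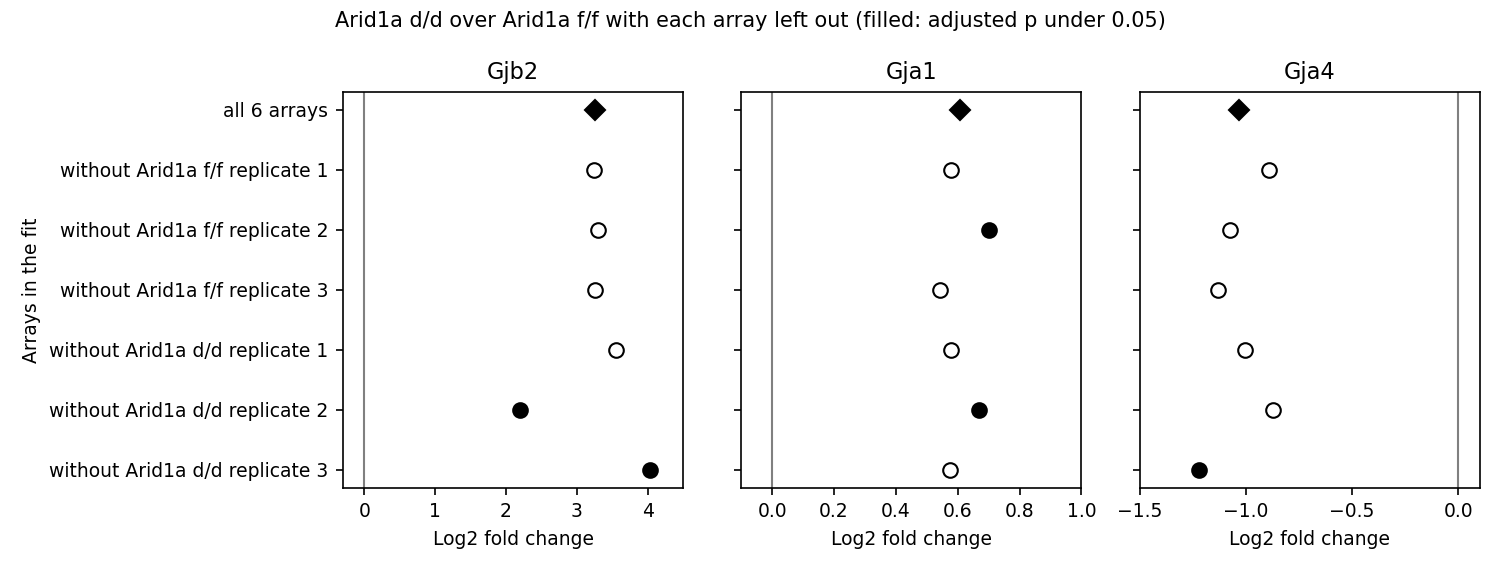
Log2 fold change of Gjb2, Gja1 and Gja4 (horizontal axes, a scale per gene) with all 6 arrays (diamond) and with each array left out (circles, filled where the adjusted p is under 0.05). All values keep their sign: Gjb2 runs from 2.20 to 4.03, Gja1 from 0.54 to 0.70 and Gja4 from -1.22 to -0.87, and most circles are open.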

How the data were processed

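RNA of whole uteri at 3.5 dpc was measured on 6 Affymetrix mouse arrays. The authors describe RMA with global scaling to a common trimmed mean, with no version stated. The deposited intensity values do not reach that target (mean after trimming 2% from each tail, 16.4 to 17.2), and their rescaling is unknown. These intensities are linear, from 1.29 to 4479, and log2 was taken with no filter. The platform annotation gives 34945 probe sets 1 gene, 932 several genes (not used) and 9160 none, and its symbols were brought up to date by Entrez ID against RefSeq GRCm38.p6. A gene is represented by its probe set of highest mean log2 value. Groups came from the sample titles. Tests used limma 3.58.1 under R 4.3.3, two-sided, with lmFit, eBayes and Benjamini-Hochberg adjustment across 45037 probe sets, and the script was tested on simulated data. Differences from marker lists were compared with exact permutation tests over arrays. Precision is limited by having 3 arrays per genotype.

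The connexins, the gene lists and the tests were chosen with earlier results of these data known, so counts over them are descriptions. Named were all probe sets of the 6 genes, genes of the connexin, pannexin and partner lists past the test, the 2 brightest of each marker list, and the 3 genes most alike to each connexin. Marker genes past the test (on the brightest or another probe set), Gja3, Gjb6 and Panx1, and the list of other connexins analysed, were named after their values were seen. Alternatives were a replicate block, quantile normalization, median centring, a filter on dim probe sets, trend and robust options, array weights, the methods' t-test, a pseudocount of 4, other probe sets per gene, and leaving out each array.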

Additional observations from a re-analysis of the deposited data

How the results depend on the processing

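Gjb5, Gjc1, Gja5 and the counts of other connexin genes kept their side of the threshold and their direction under every setting that gave a value. For the arrays the methods name a fold filter and no test, and Student's t-test is their general choice for 2 groups. That t-test, at its threshold without adjustment, gave 6 connexin probe sets higher and 1 lower, and 3386 and 3316 of all. After Benjamini-Hochberg adjustment it gave 0 and 0 for both, with Gjb2 at 3.26 (adjusted p = 0.309), Gja1 at 0.61 (0.182) and Gja4 at -1.03 (0.217). On the log2(intensity + 4) scale 3 connexin probe sets were higher, and Gjb2 had 2.31 (adjusted p = 0.186). With trend and robust options Gjb2 had 3.26 (adjusted p = 0.176). Without probe sets that may match several transcripts, 2 connexin probe sets and 587 of all were higher, among fewer tested. Gja4 relative to the endothelial markers was 0.056 on the log2(intensity + 4) scale, a change of sign. With 1 array left out, it ran from -0.16 to 0.15, Gjb2 from 2.20 to 4.03, Gja1 from 0.54 to 0.70 and Gja4 from -1.22 to -0.87, while the counts were 0 to 4 connexin probe sets higher, 0 to 1 lower, 241 to 941 of all higher and 337 to 878 lower. The cause of these shifts was not tested. Whether the replicate numbers pair the arrays is not stated in the labels. Deviations from the group means correlated at -0.0073, 0.064 and 0.20 for numbers 1, 2 and 3. Not every array correlated best with its own number, but so few arrays cannot settle whether they are paired. With the replicate block 4 connexin probe sets were higher and 1 lower, 1126 and 1039 of all, and Gjb2 (adjusted p = 0.0261), Gja1 (0.0476) and Gja4 (0.0267) kept their calls. The filter on dim probe sets removed Gja5, Gjb5 and the other connexins, and the mean of a gene's probe sets gives no count of probe sets.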
